A study of Mus musculus with 22 samples.

Results

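The step from prometaphase to ana/telophase was examined in cells that had lost CTCF, as the strength of chromatin domain boundaries and chromatin loops measured by in situ Hi-C. The cells were G1E-ER4, a mouse erythroblast line that lacks GATA1 and was left uninduced, in which both CTCF alleles carry an AID-mCherry tag (AID, auxin-inducible degron) and which were transduced with the plant F-box protein OsTiR, so that auxin removes CTCF. The members were the 4 of 22 libraries labelled prometaphase (0h, n = 2) and ana/telophase (30min, n = 2) with auxin, and all rows of the boundary and loop tables were used. Of 6376 boundaries, 6375 had a nonzero value in both auxin-treated maps, as did 16369 of 16370 loops. Prometaphase cells were arrested with nocodazole at 200 ng/ml, with auxin present during the arrest, and were sorted as MPM2-positive cells. Ana/telophase cells were released from nocodazole, by the labels for 30 min and by the protocol for 25 min, and were sorted by the loss of a GFP that carries a mitotic degron. The ana/telophase cells therefore carried another OsTiR vector than the prometaphase cells, and the vector cannot be told apart from the stage. All auxin-treated cells were also sorted for low mCherry, and the same stages without auxin (n = 2 libraries each) were the CTCF-replete control. The tables hold no measure of CTCF itself, so its loss was not checked here.

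At mitotic entry chromosomes are compacted by condensins, loops and domain boundaries are largely lost and most sequence-specific factors leave the chromatin. During exit they are rebuilt. CTCF binds an oriented DNA motif and halts loop-extruding cohesin, so that convergent motif pairs tend to lie at the feet of structural loops and at domain boundaries. Contacts between cis-regulatory elements (CREs, that is enhancers and promoters) and the segregation of active from inactive chromatin can form without it.

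The authors merged the replicates before boundary and loop strength were computed, which leaves a single number for a boundary or loop in each condition. No test between the stages, or between the treatments, was possible with these merged values, and values of the single libraries were not analysed here. Medians are given with the SD over 20 chromosomes, which describes the genome and not the cultures, and 95% Wilson intervals beside shares reflect the number of features counted and nothing else. The features were kept by the authors because they appeared after mitosis: domains, whose edges are the boundaries, had to be stronger than in both prometaphase maps in at least 1 of 6 later maps, and, for part of the loop list, the pixels that were strongest in the prometaphase map without auxin were removed. The latter filter used the control map and not the auxin-treated one, so it bears on the comparison of the treatments too. The general direction toward ana/telophase is therefore partly set by how the lists were made, and the steps below describe these lists.

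Loop anchors held the core letters of the CTCF motif more often than the genome at large. The 12-base core of the CTCF motif, in the degenerate spelling that the sites below share, was searched on both strands within 30 kb windows centred on the feature. A match was found in 51.8% of 85033 genome tiles of that length, in 66.7% of boundaries, and in 87.7% of structural, 91.5% of dual-function, 78.0% of CRE and 75.2% of uncategorised loop anchors. The sequences below are those nearest the anchor midpoint in facing orientation for loops described later, read from mm9, 5′ to 3′ on the strand of the motif, with the 12 core letters in capitals. The first pair lies at a structural loop at Abca17 on chromosome 17 and the second at a structural loop on chromosome 19. The third lies at the structural loop named below for its most negative step. It was picked among those with a 10 kb summit and a prometaphase strength of at least 1 with auxin. The last pairs belong to the dual-function loops Glrx5-Vrk1 and Prkab1-Suds3.
Abca17 loop, upstream anchor, chr17:24400920-24400949, plus strand: tcagatataCCAGAAGAGGGCatcagatct
Abca17 loop, downstream anchor, chr17:24476878-24476907, minus strand: tcaggcacaCCAGAAGAGGGCataggatcc
Chromosome 19 loop, upstream anchor, chr19:21448008-21448037, plus strand: atatcttggCCACTAGGTGGCatactggtc
Chromosome 19 loop, downstream anchor, chr19:21822078-21822107, minus strand: tccactctaCCAGCAGAGGGCgccctgtgc
Cdh23 loop, upstream anchor, chr10:59881037-59881066, plus strand: ccagggtgcCCACAAGGTGGCagcagagag
Cdh23 loop, downstream anchor, chr10:60799024-60799053, minus strand: ccagtgtggCCACCAGGTGGCgcaagtgag
Glrx5-Vrk1 loop, upstream anchor, chr12:106266104-106266133, plus strand: cttcaccgtCCAGTAGAGGGCgcacgcgtg
Glrx5-Vrk1 loop, downstream anchor, chr12:107267715-107267744, minus strand: agaattaaaCCAAAAGGGGGCggcaagacg
Prkab1-Suds3 loop, upstream anchor, chr5:116477479-116477508, plus strand: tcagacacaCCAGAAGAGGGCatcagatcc
Prkab1-Suds3 loop, downstream anchor, chr5:117563529-117563558, minus strand: cctttgaaaCCAGAAGAGGGCgccagatcc

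Several of these sites share their flanking bases, because one spelling recurs across the mouse genome in the same surroundings. Of 88575 matches in the genome, 32.9% had the same 12 core letters as the upstream Abca17 site and, after any 2 bases, the same next 5. Leaving those matches out, a match remained in 43.8% of the genome tiles, 80.8% of structural, 83.8% of dual-function and 65.4% of CRE loop anchors. Matches with the same core but other bases after it, such as the downstream Abca17 site, were not left out. A match is a description of letters and not a site bound by CTCF in these cells.

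Without CTCF, boundaries were stronger in ana/telophase than in prometaphase by a median of 1.22 on the log2 scale (SD 0.12 over 20 chromosomes), a 2.33-fold ratio. Boundary strength is ΔIS, the highest unlogged insulation value within 120 kb minus the value at the boundary, and its median was 0.0874 in prometaphase and 0.198 in ana/telophase. With CTCF present the medians were 0.0937 and 0.277, and the median step was 1.52. The step with auxin was below the step without it on 20 of 20 chromosomes. At least 2-fold stronger in ana/telophase were 3658 boundaries, 57.4% of those with a ratio, against 64.5% without auxin. At least 2-fold weaker were 404 boundaries or 6.34%, against 5.98% without auxin. The mean gain in ΔIS with auxin was 66.1% of the gain without it, and made up 50.5% of the gain that auxin-treated cells reached by mid-G1.

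The authors' 5 clusters of boundaries differed in how much of the step remained. Since those clusters were drawn on values that include these maps, the differences are a description of the clusters. In cluster1 the median ΔIS was 0.0668 in prometaphase and 0.0924 in ana/telophase, and the step was 0.48 (SD 0.24 over chromosomes) with auxin against 1.30 without it. In cluster2 ΔIS went from 0.0948 to 0.305, with a step of 1.64 (SD 0.13) against 2.14. In cluster3 the levels were 0.101 and 0.323, and the steps with and without auxin, 1.65 (SD 0.11) and 1.63, were within 1 SD of each other. The 590 boundaries of cluster4 had the larger step with auxin, 0.83 (SD 0.29) against 0.42. The 719 boundaries of cluster5, which the methods set aside as likely false boundaries, were lower in ana/telophase in both treatments, with steps of -0.28 and -0.58, and 1.53% of them lay within 20 kb of a loop anchor, against 49.4% of all boundaries.

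**Figure D1:**
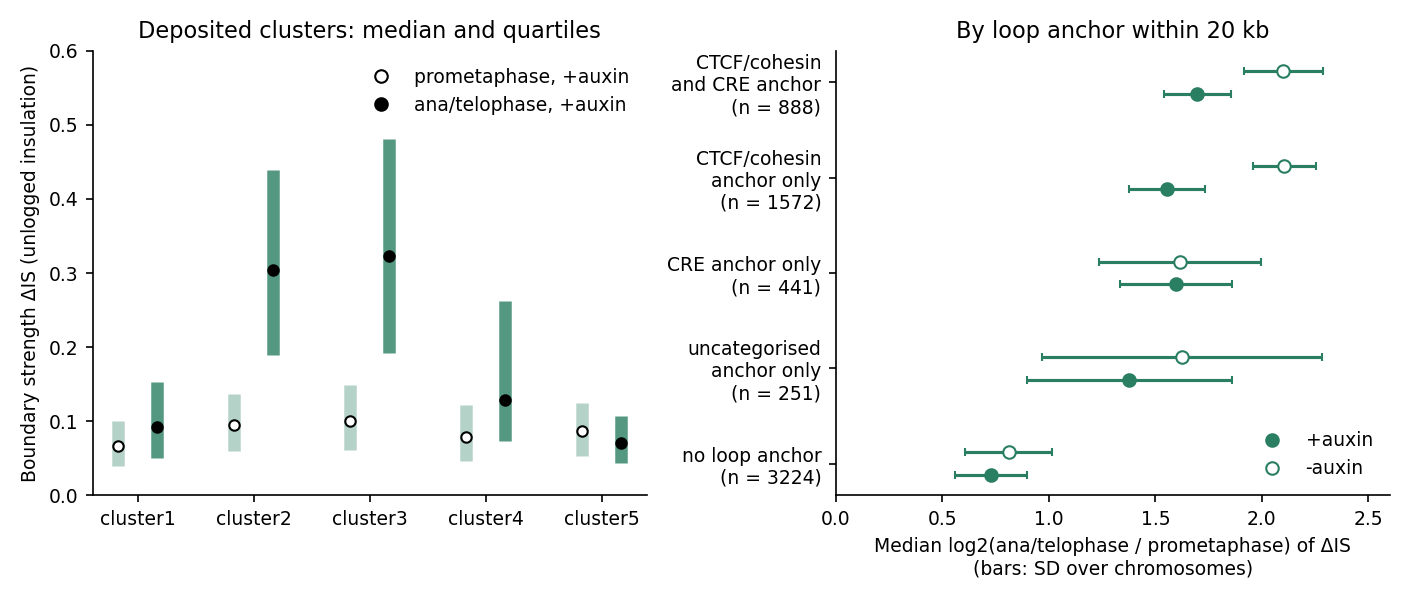
Left, boundary strength (ΔIS, a difference of unlogged insulation) of the authors' 5 clusters in auxin-treated prometaphase (open points) and ana/telophase (filled points). Points are medians and bars the quartiles. Right, median log2 ratio of ΔIS between the stages for boundaries grouped by the loop anchors within 20 kb, with auxin (filled) and without (open); bars are the SD over chromosomes. Cluster2 and cluster3 boundaries stood near 0.3 in ana/telophase, and the step with auxin trailed that without it at CTCF/cohesin anchors (1.56 against 2.105).

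Boundaries at CRE loop anchors alone had nearly the same median step in both treatments, while those at anchors of structural or dual-function loops did not. At the 441 boundaries within 20 kb of a CRE loop anchor alone, the step was 1.60 (SD 0.26) with auxin and 1.62 without. Their mean gain in ΔIS with auxin was 83.4% of that without it. At the 1572 boundaries near a structural or dual-function anchor alone it was 1.56 (SD 0.18) against 2.105. At the 888 boundaries with both kinds of anchor it was 1.70 (SD 0.16) against 2.101. The 3224 boundaries with no anchor nearby had a step of 0.73 (SD 0.17) with auxin and 0.81 without, from a median ΔIS of 0.0769 to 0.114. This group holds nearly all of the 719 cluster5 boundaries, of which 1.53% lay near an anchor.

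Gene-rich and GC-rich boundaries were the ones with the larger ratios. Boundaries with no protein-coding gene start in the 30 kb window had a median step of 1.04, those with 1 start 1.46 and those with 2 or more starts 1.64 with auxin. Without auxin the corresponding steps were 1.33, 1.76 and 1.91. Over 5 equal bins of GC content, from low to high, the step with auxin was 0.33, 0.96, 1.35, 1.44 and 1.66, in the same order as without auxin (0.44 to 2.04). Boundaries that held the CTCF core letters had a step of 1.41 with auxin and those without them 0.77. With neither a gene start nor the letters the median was 0.62 (SD 0.24), with a gene start alone 1.24 (SD 0.33), with the letters alone 1.29 (SD 0.13) and with both 1.58 (SD 0.14). Each feature alone thus went with a larger step than neither, and GC content was not split further. Cluster5 was kept in these groups. Of its boundaries 9.46% had a gene start and 35.2% the letters, against 31.8% and 66.7% of all boundaries.

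The boundary on chromosome 3 at 105770001 to 105780000, which overlaps exons of Wdr77 (a methylosome subunit) and Ovgp1 and has the Atp5f1 start nearby, went from a ΔIS of 0.0742 to 1.22 with auxin and from 0.136 to 1.46 without. At the next 2 stages with auxin it stood at 2.18 and 2.06. The boundary at Ndufb5, a subunit of mitochondrial complex I (chr3:32650001-32660000), went from 0.140 to 1.21 with auxin and from 0.164 to 1.38 without, with no CTCF core letters in its window. The log2 steps with and without auxin were 4.04 and 3.43 at the first and 3.11 and 3.07 at the second. Both, like the Hist2h boundary below, lie on chromosome 3, which the authors left out of their compartment analysis because of a translocation.

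In cluster2, the boundary in the Hist2h histone genes (chr3:96070001-96080000) went from 0.371 to 1.36 with auxin and from 0.472 to 1.69 without. The one at Hoxc10 (chr15:102790001-102800000), within a cluster of body-plan transcription factors, went from 0.509 to 1.49 with auxin and from 0.460 to 2.22 without. In cluster4, the boundary at Chek2, a DNA damage checkpoint kinase (chr5:111300001-111310000), was at 0.115 and 0.811 with auxin and at 0.191 and 0.588 without. The other cluster4 boundary (chr6:122200001-122210000) was at 1.04 in ana/telophase with auxin and 0.707 without. The boundaries named here and above were picked for their gain with auxin, and the clusters were drawn on these maps. That choice favours a higher ana/telophase value with auxin, so nothing is read from the cluster4 difference. In cluster1 the boundary at chr6:136930001-136940000 had 0.110 and 0.551 with auxin, a log2 step of 2.32 against 2.97 without, and the one at chr1:187350001-187360000 had 0.224 and 0.659 with auxin against 0.214 and 0.976 without. These cluster1 boundaries were stronger in ana/telophase in both treatments, with the smaller step in the CTCF-depleted maps.

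The largest losses had different surroundings. At Serpina11 (chr12:105220001-105230000, cluster5) ΔIS was 2.96 in prometaphase and 2.05 in ana/telophase with auxin and 2.96 and 1.67 without, the only one of the 3 that was lower in both treatments. At Nup93, which encodes a nuclear pore scaffold protein (chr8:96810001-96820000), it was 0.352 and 0.110 with auxin and 0.225 and 0.531 without. At chr1:133460001-133470000 it was 0.336 and 0.0456 with auxin and 0.163 and 0.433 without. The Nup93 and chromosome 1 boundaries, both of cluster1, were thus lower with auxin and higher without it. All 3 boundaries were picked for their loss with auxin, so nothing is read from that difference.

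Loops without CTCF were also stronger in ana/telophase, by a margin that depended on their category. Loop strength divides the observed contacts of a pixel by those expected from its surroundings, averaged over the summit and its 8 neighbours, so that 1 means no enrichment over the surroundings. CRE loops, with CREs at both anchors and CTCF and cohesin at no more than 1, went from a median of 1.09 to 1.51, a log2 step of 0.46 (SD 0.05 over 20 chromosomes, n = 4642). Dual-function loops, with CTCF, cohesin and CREs at both anchors, went from 1.06 to 1.36 (0.36, SD 0.07, n = 3370). Structural loops, with CTCF and cohesin at both anchors and a CRE at no more than 1, went from 1.00 to 1.15 (0.21, SD 0.03, n = 4837). Uncategorised loops went from 1.03 to 1.254 (0.27, SD 0.04, n = 3521). Over all loops the median step was 0.32 (SD 0.03).

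**Figure D2:**
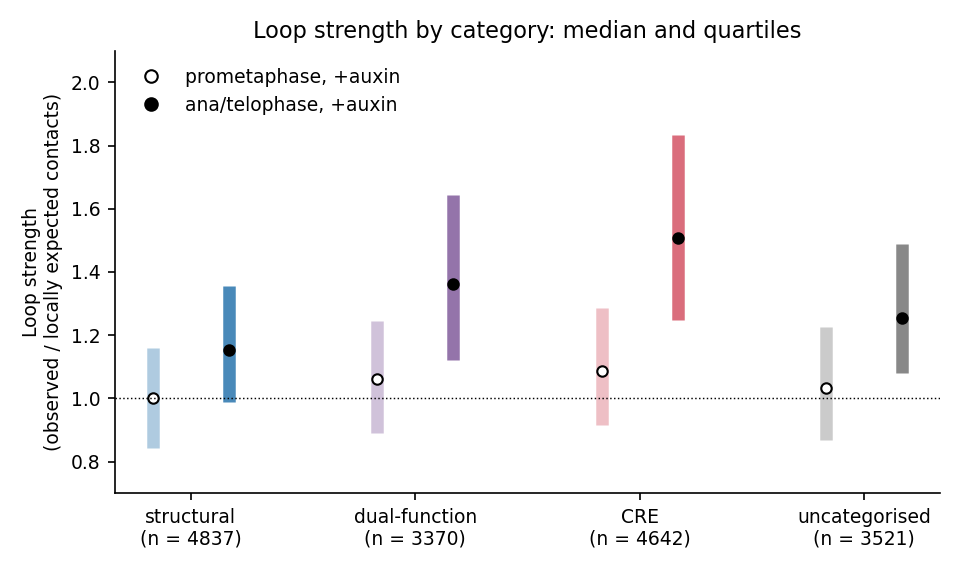
Loop strength (observed over locally expected contacts) in auxin-treated prometaphase (open points, pale bars) and ana/telophase (filled points, dark bars) for each loop category; points are medians and bars the quartiles over loops, and the dotted line marks no enrichment. The 4 categories started between 1.00 and 1.09 and CRE loops had the highest ana/telophase median, 1.51, structural loops the lowest, 1.15.

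Against the cells with CTCF, the median step over all CRE loops was nearly as large and that of structural loops was much smaller. Without auxin the median steps were 0.47 for CRE, 0.57 for dual-function, 0.61 for structural and 0.41 for uncategorised loops. Taken loop by loop, the step with auxin minus that without had a median of -0.02 (SD 0.04 over chromosomes) for CRE loops, -0.19 (SD 0.06) for dual-function and -0.41 (SD 0.06) for structural loops. The mean gain in loop strength with auxin amounted to 94.5% of that without it for CRE loops, 54.7% for dual-function, 57.9% for uncategorised and 25.7% for structural loops. Of the 4837 structural loops 4578 were not detected with auxin, so they entered the list from the maps without it. This favours a smaller step with auxin. Their gain was 24.0% of that without auxin. For the 33, 152 and 73 first detected with auxin in ana/telophase, early-G1 and mid-G1 it was 83.2%, 50.5% and 54.3%. The shares therefore describe how the list was made as well. Among structural loops 78.9% had the smaller step with auxin, and among CRE loops 51.9%. By first detection, the CRE difference was 0.12 (SD 0.10) for the 752 loops first detected in ana/telophase with auxin. It was -0.13 (SD 0.08) for the 2064 CRE loops not detected with auxin. The detection label is drawn from the auxin-treated maps and favours these signs, so nothing is read from them. By summit width, the dual-function difference was -0.25 (SD 0.06) for loops with a 10 kb summit and -0.02 (SD 0.12) for the 571 with a 25 kb summit, and the structural difference -0.47 (SD 0.08) and -0.26 (SD 0.07).

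Counted at a ratio of at least 1.5-fold, 4334 loops were stronger in ana/telophase with auxin, 26.5% of 16369, and 264 (1.61%) were weaker. Without auxin these shares were 43.8% and 0.257%. By category with auxin, 1705 CRE loops (36.7%, 95% interval 35.4 to 38.1), 947 dual-function loops (28.1%, 26.6 to 29.6), 931 structural loops (19.2%, 18.2 to 20.4) and 751 uncategorised loops (21.3%, 20.0 to 22.7) were at least 1.5-fold stronger. CRE loops thus lay above the share over all loops and structural loops below it. These counts depend on the scale: after adding 0.5 to both strengths they were 879, 415, 397 and 283 in the same order, and after subtracting the median step of all loops 652, 306, 332 and 228. Of the 264 weaker loops 159 were structural, 3.29% of that category (95% interval 2.82 to 3.83), against 0.0827% without auxin, while 13 were CRE loops, 0.28% with auxin and 0.302% without.

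The loops past the fold were partly different ones in the 2 treatments, whose prometaphase maps are separate libraries. Over all loops, 58.6% of those stronger with auxin were also stronger without it, and 35.4% of those stronger without auxin were stronger with it, against 43.8% and 26.5% of all loops. Of the CRE loops stronger with auxin 52.9% were also stronger without it, against 38.7% of all CRE loops, and of those stronger without auxin 50.3% were stronger with it, against 36.7%. Of the 931 structural loops stronger with auxin 70.0% were stronger without it, against 52.7% of all structural loops, and of those stronger without it 25.6% were stronger with it, against 19.2%. In counts, 652 structural loops were stronger in both treatments, 279 with auxin alone and 1897 without auxin alone. For CRE loops the same counts were 902, 802 and 892. Across loops the steps of the 2 treatments had a Spearman rho of 0.29 for CRE and 0.22 for structural loops, with loops as points that share libraries and are not replicates.

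**Figure D3:**
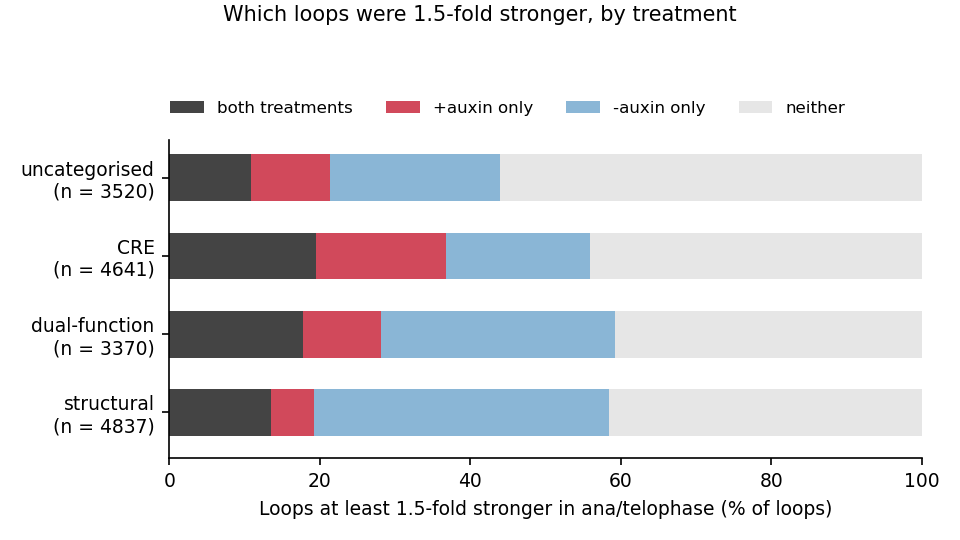
Share of loops (%) in each category that were at least 1.5-fold stronger in ana/telophase than in prometaphase in both treatments, with auxin alone, without auxin alone, or in neither. The part without auxin alone was largest for structural loops (1897 loops) and the part with auxin alone for CRE loops (802 loops).

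The category order was seen on nearly every chromosome. The CRE median was above the structural median on 20 of 20 chromosomes with auxin, and the order CRE, dual-function, structural on 19. Structural medians ran from 0.15 on chromosome 8 to 0.29 on chromosome 16 with auxin and from 0.54 to 0.69 without, with no overlap. CRE medians ran from 0.36 on chromosome 19 to 0.52 on chromosome 12 with auxin and from 0.36 to 0.55 without, and were lower with auxin on 15 of 20 chromosomes. Dual-function medians covered the widest range with auxin, from 0.25 on chromosome 10 to 0.55 on chromosome X.

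**Figure D4:**
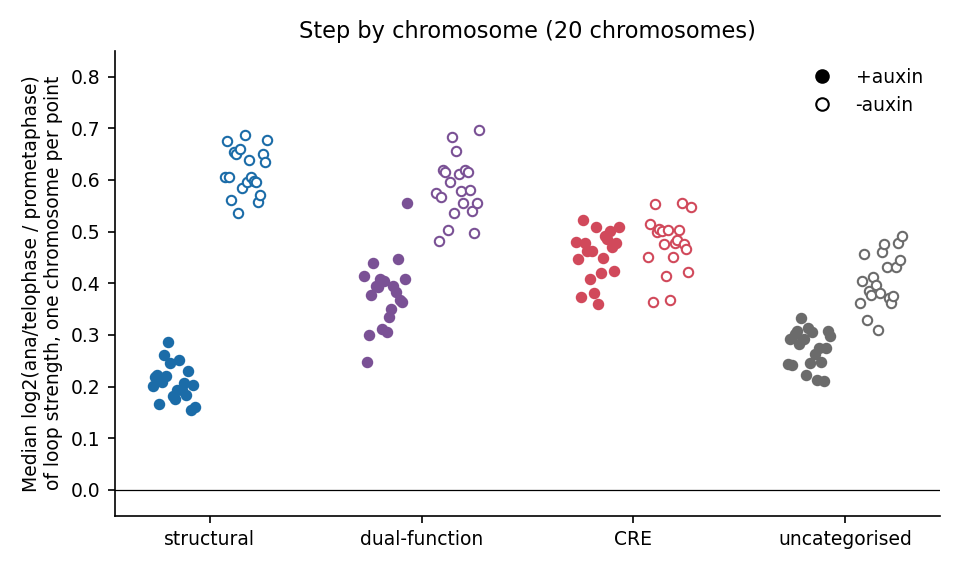
Median log2 ratio of loop strength between ana/telophase and prometaphase for each loop category, with auxin (filled) and without (open); each point is 1 of 20 chromosomes. Structural loops form separate clouds in the 2 treatments (0.15 to 0.29 against 0.54 to 0.69), whereas the CRE clouds overlap.

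CRE loops had much the same step at every size, and in the other categories the step with auxin was smallest up to 100 kb. For structural loops the difference from the longer classes was within the SD of that shortest class. CRE loops had a step of 0.43 (SD 0.07) up to 100 kb, 0.46 at 100 to 200 kb, 0.48 at 200 to 500 kb, 0.44 at 500 to 1000 kb and 0.48 (SD 0.18) above 1000 kb with auxin, all within 1 SD of the steps without it. Structural loops had 0.15 (SD 0.12), 0.19, 0.26, 0.24 and 0.21 (SD 0.21) in the same size classes, against 0.40, 0.56, 0.73, 0.70 and 0.57 without auxin. Loop by loop, the step with auxin minus that without was -0.47 both at 200 to 500 kb and at 500 to 1000 kb and nearer 0 in the other size classes of structural loops. At 200 to 500 kb the ana/telophase median was 1.22 with auxin and 1.83 without. In dual-function loops the step was 0.30 up to 100 kb and 0.44 at 500 to 1000 kb with auxin. Over all loops, those up to 200 kb had a median step 0.08 below that of loops above 500 kb (-0.08, SD 0.05 over chromosomes). With 10 kb summits alone this difference was -0.23 (SD 0.18).

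**Figure D5:**
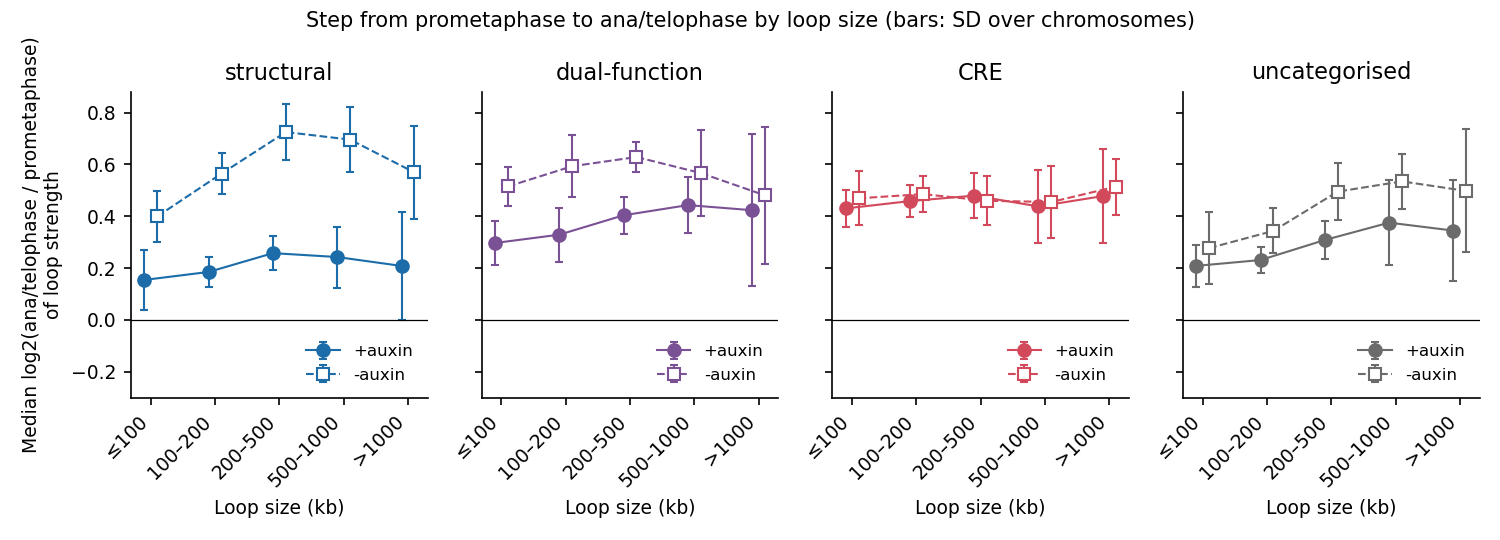
Median log2 ratio of loop strength between ana/telophase and prometaphase against loop size (kb, 5 classes) for each loop category, with auxin (filled circles, solid lines) and without (open squares, dashed lines); bars are the SD over chromosomes. The 2 lines coincide for CRE loops and lie apart for structural loops (0.26 against 0.73 at 200 to 500 kb).

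The prometaphase value is the denominator of each ratio, and loops that were low there had the larger step. Whether measurement noise made them low cannot be told from merged maps. In the lowest of 4 equal bins of auxin-treated prometaphase strength the median steps were 0.56 for structural, 0.55 for dual-function and 0.68 for CRE loops. In the highest bin they were -0.08, 0.20 and 0.26. Structural loops of that bin were thus at 1.28 in prometaphase and 1.26 in ana/telophase, while CRE loops of the highest bin went from 1.46 to 1.84. The bins were cut within each category, so their limits differ between categories.

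Gene starts at the anchors separated the steps with auxin within a category by little more than the spread over chromosomes. With auxin CRE loops with a gene start at 0, 1 or 2 anchors had steps of 0.38 (SD 0.10), 0.45 (SD 0.06) and 0.48 (SD 0.07), and dual-function loops 0.29 (SD 0.14), 0.34 (SD 0.04) and 0.38 (SD 0.10). Structural loops had 0.20, 0.22 and 0.20. Without auxin CRE loops had 0.51 (SD 0.09), 0.47 (SD 0.05) and 0.46 (SD 0.08) and dual-function loops 0.69 (SD 0.17), 0.63 (SD 0.09) and 0.51 (SD 0.06). Loop by loop, the step with auxin minus that without was -0.37 (SD 0.26), -0.28 (SD 0.10) and -0.11 (SD 0.13) for dual-function loops. It was -0.13 (SD 0.09), -0.04 (SD 0.05) and 0.02 (SD 0.05) for CRE and -0.46, -0.37 and -0.39 for structural loops. The orientation of the CTCF letters hardly separated loops: structural loops with a facing pair had a step of 0.21 (SD 0.05) and those with letters at both anchors but no facing pair 0.19 (SD 0.09). CRE loops with no letters at either anchor had 0.50 (SD 0.20).

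By the authors' label for first detection in the auxin-treated maps, 1295 loops were given as ana/telophase, 2515 as early-G1, 908 as mid-G1 18 as prometaphase, and 11634 were not detected with auxin. These labels come from the same maps and describe them. Of the ana/telophase group 752 were CRE loops, 364 dual-function, 146 uncategorised and 33 structural. The CRE loops of that group went from 1.14 to 1.82 and the structural ones from 1.11 to 1.48. Loops not detected with auxin had steps of 0.38 in the CRE, 0.30 in the dual-function and 0.20 in the structural category with auxin, against 0.51, 0.60 and 0.61 without it. The 146 uncategorised loops were already at 1.71 in prometaphase and at 2.12 in ana/telophase.

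Among CRE loops detected in ana/telophase with auxin, the largest ratio was at Nek7 and Aspm on chromosome 1, genes of a mitotic kinase and of a spindle pole protein. The anchors, at chr1:140510001-140520000 and chr1:141350001-141360000, are 840 kb apart. The loop was at 0.420 in prometaphase and 2.28 in ana/telophase with auxin, and at 1.18 and 2.19 without, so the ana/telophase values were close and the prometaphase values were not. The loop between Morf4l2, which encodes a chromatin protein, and Mcart6 and Fam199x on chromosome X (133270001 and 133570001) went from 0.727 to 3.72 with auxin and from 0.897 to 2.15 without. No CTCF core letters lay in either of its windows. At early-G1 and mid-G1 with auxin it was lower, 2.61 and 2.74. The loop between Sec31a, of the COPII vesicle coat, and Fam175a, of the BRCA1-A complex, on chromosome 5 (100830001 and 101240001) went from 0.714 to 2.92 with auxin and from 0.768 to 1.97 without.

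The CRE loop with the largest ratio in each size class included short and very long ones. Up to 100 kb it was a 90 kb loop within Sertad2 (chr11:20440001), from 0.734 to 2.18 with auxin and from 1.22 to 2.36 without. At 100 to 200 kb it was a 170 kb loop from Eif3e, a translation initiation factor subunit (chr15:43110001), from 0.736 to 2.79 with auxin and from 1.10 to 1.88 without. Above 1000 kb it was the 1590 kb loop from Laptm5, a lysosomal membrane protein of blood cells, to Sesn2, a stress-induced sestrin (chr4:130470001 and chr4:132060001), from 1.10 to 3.26 with auxin and from 1.41 to 3.18 without. All 3 were above 2 in ana/telophase with auxin. In prometaphase the first 2 lay below the CRE median of 1.09 with auxin and the Laptm5-Sesn2 loop did not.

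The largest ratio of the loops named by this rule was that of a dual-function loop. This loop, between Glrx5, which serves iron-sulphur cluster assembly, and Vrk1, a nuclear kinase (980 kb, motif letters printed above), went from 0.607 to 4.08 with auxin, and stood at 2.98 in early-G1 and 4.37 in mid-G1. Without auxin it went from 1.48 to 3.16. The 1090 kb loop between Prkab1, an AMP-activated kinase subunit, and Suds3, of the Sin3 deacetylase complex, went from 0.996 to 4.04 with auxin and from 1.84 to 3.86 without, and reached 6.14 and 7.52 in mid-G1. The 110 kb loop between Tfam, the mitochondrial transcription factor, and Cisd1 and Ipmk (chr10:70690001 and chr10:70800001) went from 0.706 to 2.76 with auxin and from 1.27 to 2.40 without. These loops, like the CRE loops above, were picked for their ratio with auxin, a choice that favours a high ana/telophase and a low prometaphase value in the auxin-treated maps, so nothing is read from their difference between the treatments.

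Structural loops detected in ana/telophase with auxin numbered 33, and the largest ratios among them were smaller. The 70 kb loop within Abca17, a lipid transporter gene, ending near the Abca3 start, went from 0.543 to 1.71 with auxin and from 0.691 to 1.06 without. The 380 kb loop on chromosome 19, with no gene start at its anchors, went from 1.11 to 2.30 with auxin and was at 1.63 in early-G1 and 1.47 in mid-G1. Without auxin it went from 1.72 to 2.71 and on to 3.98 and 4.56. The 90 kb loop between Myst3, a histone acetyltransferase gene, and an intron of Ank1, the erythrocyte ankyrin gene (chr8:24040001 and chr8:24130001), went from 0.760 to 1.52 with auxin and from 1.38 to 1.94 without. The Abca17 loop was likewise lower later with auxin, at 1.59 and 1.45, and higher later without it, at 1.51 and 1.57. The Myst3-Ank1 loop was not: with auxin it stood at 1.52 and 1.51 later, and without auxin it was lower, at 1.57 and 1.66.

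The most negative steps were taken among loops with a prometaphase strength of at least 1 with auxin, a choice that favours high prometaphase values. The 920 kb structural loop from Cdh23 (letters printed above) was at 2.75 in prometaphase and 0.780 in ana/telophase with auxin, then 2.39 and 1.69. Without auxin it went from 1.47 to 2.79 and to 4.99 in mid-G1. The 870 kb structural loop at chr5:45860001 and chr5:46730001 was at 1.98 and 0.588 with auxin and at 1.86 and 1.69 without. The uncategorised loop with the lowest ratio, between Mypn and Sirt1 on chromosome 10 (62610001 and 62830001), was at 2.12 and 0.772 with auxin. The dual-function loop with the lowest ratio, on chromosome 1 (132440001 and 132940001), was at 1.48 and 0.651, and the CRE loop with the lowest ratio, between Txndc15 and Smad5 on chromosome 13, at 2.45 and 1.33. All 3 were higher in ana/telophase without auxin, from 0.929 to 1.70, from 0.887 to 2.14 and from 1.69 to 2.62.

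The widest shortfall from the CTCF-replete step was chosen after the values were seen. A 740 kb structural loop between Olfr1009 and Olfr1066, in a cluster of olfactory receptor genes on chromosome 2 (85560001 and 86300001), was at 1.06 and 0.515 with auxin and at 0.547 and 3.28 without. A 1190 kb structural loop ending near the Nup93 start (chr8:95530001 and chr8:96720001) was at 1.34 and 0.567 with auxin and at 0.743 and 3.42 without, and in mid-G1 at 1.51 against 16.2. A 1020 kb structural loop from the Pcdh7 start (chr5:58100001) was at 1.11 and 0.387 with auxin and at 1.10 and 3.29 without.

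Gene lists relevant to these cells were read at boundaries and loop anchors with a gene start inside the 30 kb window. At least 1 loop was found for 24 of the 27 erythroid regulators in the annotation, 18 of the 24 haem and globin genes in it, 33 of 38 cell cycle genes, 21 of 28 immediate early genes, 25 of 39 Hox genes and 19 of 24 CTCF, cohesin and condensin genes. Every boundary in these lists has a gene start, so the share over all boundaries, 57.4%, is not a like background. With auxin, 975 of 1425 boundaries with 1 gene start and 451 of 601 with 2 or more were at least 2-fold stronger. For erythroid regulators, all 6 boundaries were at least 2-fold stronger with auxin. At 1.5-fold, 25 of 97 loops were stronger, 25.8% against 26.5% of all loops. The largest boundary ratio was at E2f4, a repressive cell cycle factor, from 0.0339 to 0.329 with auxin and from 0.154 to 0.403 without. A 1670 kb CRE loop at Gata2, the early haematopoietic factor that GATA1 replaces, went from 1.52 to 3.61 with auxin and from 1.88 to 2.78 without. A dual-function loop at Erg was at 1.30 and 1.05 with auxin and at 1.26 and 1.56 without.

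For haem and globin genes, 21 of 54 loops (38.9%, against 26.5% of all loops) were at least 1.5-fold stronger and 1 was weaker, where 1.61% of all loops were, with a median step of 0.50 against 0.32 over all loops. At least 2-fold stronger were 3 of 4 boundaries, against 975 of 1425 with 1 gene start and 451 of 601 with 2 or more. A 1020 kb CRE loop at Alad, the second enzyme of haem synthesis, went from 0.933 to 2.87 with auxin and from 1.64 to 3.77 without. The weaker one was a structural loop at Cpox, a later enzyme of the same pathway, at 0.928 and 0.426 with auxin and at 1.42 and 2.24 without. The boundary at Urod, another of these enzymes, went from 0.0514 to 0.426 with auxin and from 0.0449 to 0.668 without.

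For cell cycle genes, 43 of 113 loops (38.1%) were at least 1.5-fold stronger and none was weaker at that fold. The shares over all loops were 26.5% stronger and 1.61% weaker, and the stronger share over CRE loops, which were 56 of the 113, was 36.7%. At least 2-fold stronger were 11 of 14 boundaries (78.6%), against 975 of 1425 with 1 gene start and 451 of 601 with 2 or more. The boundary at Tpx2, a spindle assembly factor, went from 0.136 to 1.04 with auxin and from 0.283 to 1.38 without, while that at Cdk2 was at 0.118 and 0.0333 with auxin and at 0.0900 and 0.364 without. A 1670 kb dual-function loop at Myc went from 0.950 to 2.67 with auxin and from 1.45 to 5.23 without. For immediate early genes, 21 of 65 loops (32.3%, against 26.5% of all loops) were stronger, led by a 130 kb CRE loop at Zfp36l1, which encodes an mRNA decay factor, from 0.795 to 1.94 with auxin and from 1.00 to 1.65 without.

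For Hox genes, 6 of 31 loops (19.4%, against 26.5% of all loops) and 2 of 3 boundaries passed the same folds. Among boundaries with 1 gene start 975 of 1425 passed, and among those with 2 or more 451 of 601. The boundary at Hoxd9 to Hoxd12 was at 0.0362 and 0.0341 with auxin and at 0.0412 and 0.272 without. A structural loop from Hoxd3, Hoxd4 and Hoxd8 was at 2.74 and 2.15 with auxin and at 1.23 and 4.35 without. For CTCF, cohesin and condensin genes, 17 of 37 loops were stronger (45.9%, against 26.5% of all loops) and 2 weaker, where 1.61% of all loops were. CRE loops, whose own share was 36.7%, made up 25 of the 37. The boundary at Smc3, a core cohesin subunit, went from 0.0403 to 0.771 with auxin and from 0.158 to 1.16 without. These lists differ in their mix of loop categories, none was compared by a test, and single lists hold few features.

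After ana/telophase, the loops that had become at least 1.5-fold stronger with auxin followed different courses by category. With auxin the median of the 1705 CRE loops was 0.964 at prometaphase, 1.78 at ana/telophase, 1.93 at early-G1 and 1.83 by mid-G1. The 947 dual-function loops had 0.941, 1.68, 1.83 and 1.73 in that order, and the 931 structural loops 0.784, 1.41, 1.43 and 1.49. The same structural loops stood at 1.98 in ana/telophase and 2.93 in mid-G1 without auxin. Of the structural loops 39.5% were lower in mid-G1 than in ana/telophase with auxin, against 2.26% without. For CRE loops these shares were 44.3% and 41.1%. The loops were chosen by their ana/telophase value with auxin, so the auxin-treated shares are a description. The share without auxin rests on other libraries. Yet 4578 of all 4837 structural loops were not detected with auxin and entered the list from maps without it. High later values without auxin were thus favoured for structural loops, and their 2.26% is a description too.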

How the data were processed

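In situ Hi-C was measured by the authors in G1E-ER4 cells with DpnII digestion. Reads were aligned to mm9 with Bowtie2, per the labels, within HiC-Pro, duplicates were removed and replicates were merged. Boundary strength is a signal that the authors deposited: ΔIS, a difference of unlogged insulation values of KR-balanced 10 kb maps. Loop strength is a ratio of observed over expected contacts that the authors deposited, called at 10 and 25 kb. Their cluster, category and detection labels were used as deposited. The contacts behind each value are not in the tables used here.

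Each step was computed as log2 of the ana/telophase over the prometaphase value, with no pseudocount. Features at 0 in either map were left out of ratios. Medians, SD over 20 chromosomes and 95% Wilson intervals were computed with pandas 2.3.3 and statsmodels 0.14.6 in Python 3.11.15. A change was counted at 1.5-fold for loops and 2-fold for boundaries. Gene starts were those of protein-coding genes within 30 kb windows of the GENCODE mouse annotation on mm9, and boundary positions were taken as the start of a 10 kb bin. Scripts were tested on simulated data with planted steps.

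Sites named were, per boundary cluster 1 to 4, the 2 largest gains, the 3 largest losses of all boundaries, and, per loop category, the 3 largest log2 steps among loops with a 10 kb summit detected in ana/telophase with auxin and the 2 most negative among those with a prometaphase strength of at least 1. For CRE loops the largest per size class, and per gene list the largest and smallest member, were added; examples were drawn from these. Members, lists and rules were chosen with earlier results of these data known. Alternatives were a pseudocount, floors on prometaphase strength, other folds, summit widths, centring, ratios of means and leaving out chromosomes 3 and X or cluster 5.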

Additional observations from a re-analysis of the deposited data

How the results depend on the processing

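Of 80 values computed under alternatives for 11 reported quantities, 52 stayed within the SD over chromosomes or within 1.5 times of a count, 26 moved and 2 changed sign. No paired analysis was possible because the columns of the 2 tables used here are merged maps. For the same reason no library was left out, and maps of single libraries were not analysed here. The 2 sign changes came from subtracting the median step of all loops, which by construction moves every step down by 0.32: structural loops came to -0.11 and uncategorised loops to -0.058, dual-function loops to 0.038 and CRE loops to 0.13, with 332, 228, 306 and 652 loops past 1.5-fold. The order of the categories' steps is not affected by it. Adding 0.5 to both strengths gave steps of 0.14 for structural, 0.25 for dual-function, 0.33 for CRE and 0.18 for uncategorised loops, and 397, 415, 879 and 283 loops past the fold. At the lower fold limit the counts were 1882, 1823, 2956 and 1546 in the same order, and at 2-fold 255, 213, 458 and 163. Adding 0.05 to boundary strengths gave a step of 0.86, leaving out cluster 5 gave 1.37, and a 3-fold limit left 2387 boundaries. With 10 kb summits alone, loops up to 200 kb were 0.23 below loops above 500 kb (-0.23); the cause was not tested.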
